A study of Homo sapiens with 6 samples.

Results

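The nuclear receptors are a family of transcription factors, most of which bind a small fat-soluble ligand such as a hormone, a bile acid or a fatty acid. Here 46 of them were described by name, and each had 1 probe set among the 24726 in the table. They were taken from a list of gene symbols and matched through the gene ID that names each row, with no filter on their values. The list was chosen with earlier results of these data known. The samples were 6 subcutaneous tumours that Huh7, an established human hepatocellular carcinoma line, had formed in nude mice, which lack mature T cells. The cells of 3 tumours (IR-A) carried the plasmid pRcCMVi.hIR-A(GFP), which encodes isoform A of the human insulin receptor with a fluorescent marker, and the cells of 3 others (control) carried the empty vector. Both populations had been selected for G418 resistance and by cytometry for fluorescence, so both groups share the marker and the selection. Levels were log2 signals from Affymetrix arrays, 1 array a tumour, and differences are given as IR-A minus control, between group means on that scale.

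A typical nuclear receptor has a zinc finger domain that reads short DNA elements and a ligand-binding domain that recruits coactivators or corepressors. Many act as a pair with a retinoid X receptor (RXR), while steroid receptors pair with themselves and some orphan receptors bind as single molecules. In hepatocytes the family ties bile acids, fatty acids, oxysterols, drugs, thyroid hormone and glucocorticoids to the genes that make, burn or clear them, and HNF4A holds much of the hepatocyte programme in place.

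The vector gene was checked first. INSR, the insulin receptor, had a log2 signal of 10.65, 11.31 and 11.01 in IR-A tumours, against 8.04, 7.61 and 8.47 in control tumours, a difference of 2.95 (SE 0.26, adjusted p = 0.0769 in limma). All 12 hepatocyte and Huh7 markers on the list lay above each array's median on all 6 arrays, and 5 of them had an unadjusted p under 0.05, all with higher signal in IR-A tumours (41.7%, beside 14.1% of all probe sets). Of all probe sets above the array's median on all 6 arrays, 23.8% had an unadjusted p under 0.05. The marker count was 3 of 12 (25%) after dropping the dimmest 25% or 50% of probe sets, beside 16.6% and 20.7% of all probe sets. It was 1 without control tumour 1, 1 without IR-A tumour 1, 0 without IR-A tumour 2 and 1 with a replicate block. Of all probe sets, 8.72% to 10.9% were counted in those settings. The marker count was 2 (16.7%, beside 9.46%) without moderation. It was 3 (25%) without IR-A tumour 3, 4 (33.3%) without control tumour 3, and 6 (50%) without control tumour 2 or with array weights. The share of all probe sets there was 11.7% to 21.1%. It stayed at 5 markers after quantile normalization or median centring, and with trend or robust moderation. The list's summed linear signal was 54199 to 58687 in IR-A and 44221 to 51778 in control tumours, and its part in the receptor differences was not tested. ALB, albumin, lay at 12.99 to 13.09 in IR-A and 12.82 to 13.04 in control tumours. Control tumour 2 stood nearer to the IR-A mean than to the mean of the other controls in 30 of 46 receptors (65.2%). The same held for 60.9% of all probe sets, so values without it are given beside the results that it moves most. It was picked from these same values, and leaving out a control near the IR-A mean tends to widen differences. Wider differences, groups set apart and higher counts without it are therefore no added support. This nearness was not counted for the other control tumours. Separate mice or cultures are not stated in the labels, so the p-values speak only for the spread among these tumours, which may be technical. With 3 values a group, the smallest p an exact two-sided permutation test allows is 0.1. In whole tumours, fewer cells of a type and less RNA per cell cannot be told apart.

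Promoter sequence is shown for those receptors with an unadjusted p under 0.05 that had a window at the annotated start of the gene, because these are the members the results turn on. RefSeq's promoter table for GRCh38.p14 held windows for 41 of the 46 receptors, 96 windows in all. Each stretch below is the 250 bases before a transcript start, 5′ to 3′ on the gene's strand, in lower case with motif matches in capitals. Motifs searched on both strands were AGGTCA, the hexamer most of the family reads, GTAAACA, a forkhead (FOXO) element, CAAAGTCCA, an HNF4 element, and CACGTG, the E-box of clock factors. The build that the array design used is not given in the sources used here.
PPARA, outer window, GRCh38.p14 chr22:46150276-46150525, plus strand: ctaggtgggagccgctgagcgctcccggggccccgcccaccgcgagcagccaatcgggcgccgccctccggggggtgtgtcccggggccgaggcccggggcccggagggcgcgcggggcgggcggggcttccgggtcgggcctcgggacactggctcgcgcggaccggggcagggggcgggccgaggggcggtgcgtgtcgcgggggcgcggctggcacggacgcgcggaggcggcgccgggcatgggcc
NR1I2, outer window, GRCh38.p14 chr3:119781851-119782100, plus strand: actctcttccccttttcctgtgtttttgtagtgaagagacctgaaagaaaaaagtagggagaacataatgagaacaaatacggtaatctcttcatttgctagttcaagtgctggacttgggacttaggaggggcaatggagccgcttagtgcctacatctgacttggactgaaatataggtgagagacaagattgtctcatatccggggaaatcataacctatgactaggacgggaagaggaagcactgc
NR6A1, outer window, GRCh38.p14 chr9:124771312-124771561, minus strand: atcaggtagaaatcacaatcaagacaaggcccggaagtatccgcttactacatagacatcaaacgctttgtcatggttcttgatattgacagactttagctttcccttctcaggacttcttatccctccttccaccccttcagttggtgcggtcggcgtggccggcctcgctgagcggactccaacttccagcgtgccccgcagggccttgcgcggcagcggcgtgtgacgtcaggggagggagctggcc
NR5A2, outer window, GRCh38.p14 chr1:200027460-200027709, plus strand: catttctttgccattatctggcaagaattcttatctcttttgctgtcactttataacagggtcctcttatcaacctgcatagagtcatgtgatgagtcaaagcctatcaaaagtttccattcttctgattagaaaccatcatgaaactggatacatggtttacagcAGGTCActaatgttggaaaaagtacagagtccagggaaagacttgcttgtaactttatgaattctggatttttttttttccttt
NR5A2, inner window, GRCh38.p14 chr1:200042341-200042590, plus strand: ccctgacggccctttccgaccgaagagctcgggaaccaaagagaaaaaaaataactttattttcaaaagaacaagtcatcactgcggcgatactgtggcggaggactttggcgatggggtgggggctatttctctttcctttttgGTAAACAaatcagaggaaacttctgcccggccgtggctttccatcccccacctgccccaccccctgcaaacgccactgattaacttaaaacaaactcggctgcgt

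In these letters AGGTCA stood in the outer NR5A2 window and GTAAACA in the NR5A2 window 14881 bases further into the gene, and no motif stood in the other 3 windows shown. Of inner windows only that of NR5A2 is shown. The inner windows of PPARA and NR1I2, 262 and 609 bases into the gene, held no motif. The NR2F2 window 6519 bases into the gene held CACGTG at 2 places. Over all receptor windows, AGGTCA was found in 15.6% of 96, against 12.1% of 35116 windows of that length in the table. The 15 receptor windows with it came from 11 genes. Windows of the same gene can overlap and share a site, as in PPARG and ESR2, so they are not independent. GTAAACA was in 3.12%, against 2.98%, CACGTG in 6.25%, against 6.34%, and CAAAGTCCA in 0 of 96, against 0.325%. A match is only a run of letters and shows no binding.

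No receptor passed limma's test after adjustment over all probe sets, and neither did any other probe set (0% of 24726). The lowest adjusted p in the family was 0.131, that of NR6A1. At an unadjusted p under 0.05 there were 6 of 46 receptors, against 14.1% of all probe sets. PPARA, NR0B2, NR1I2 and NR5A2 were the 4 with higher signal in IR-A tumours, beside 7.1% of all probe sets, and NR6A1 and NR2F2 the 2 with lower signal, beside 7.03%. Groups did not overlap with IR-A tumours above in 7 receptors (7.73% of all probe sets) and with IR-A tumours below in 2 (9.45% of all probe sets). The share at an unadjusted p under 0.05 lay near that of the whole table. The share without overlap did not, being above it for IR-A tumours above and below it for IR-A tumours below, and the family as a whole was not tested. Of the 7, NR0B2, ESRRG, NR1H2, NR5A2 and NR1I2 were apart by only 0.0012 to 0.032. Above the array's median on all 6 arrays lay 6 of the 7, and the share without overlap among all such probe sets was not counted. The median difference over the 46 was 0.08, against -0.03 over all probe sets, and 29 were above 0 (63.0%, beside 44.0% of all probe sets).

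Signal strength divided the family. On all 6 arrays 27 receptors lay above the array's median. Of their differences 20 were above 0 (74.1%), against 50.2% of the 11182 probe sets that met the same condition. Their median was 0.21, against 0.0014 for those probe sets. All 6 receptors with an unadjusted p under 0.05 were among these 27 (22.2%), beside 23.8% of such probe sets. The other 19 had a median of -0.01. Arrays compress the differences of dim probe sets, and 10 of the 46 receptors read the same value on at least 2 arrays, against 24.0% of all probe sets. The moderated 95% interval lay between -1 and 1, within a 2-fold change either way, for 38 receptors and reached past it for 8.

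**Figure D1:**
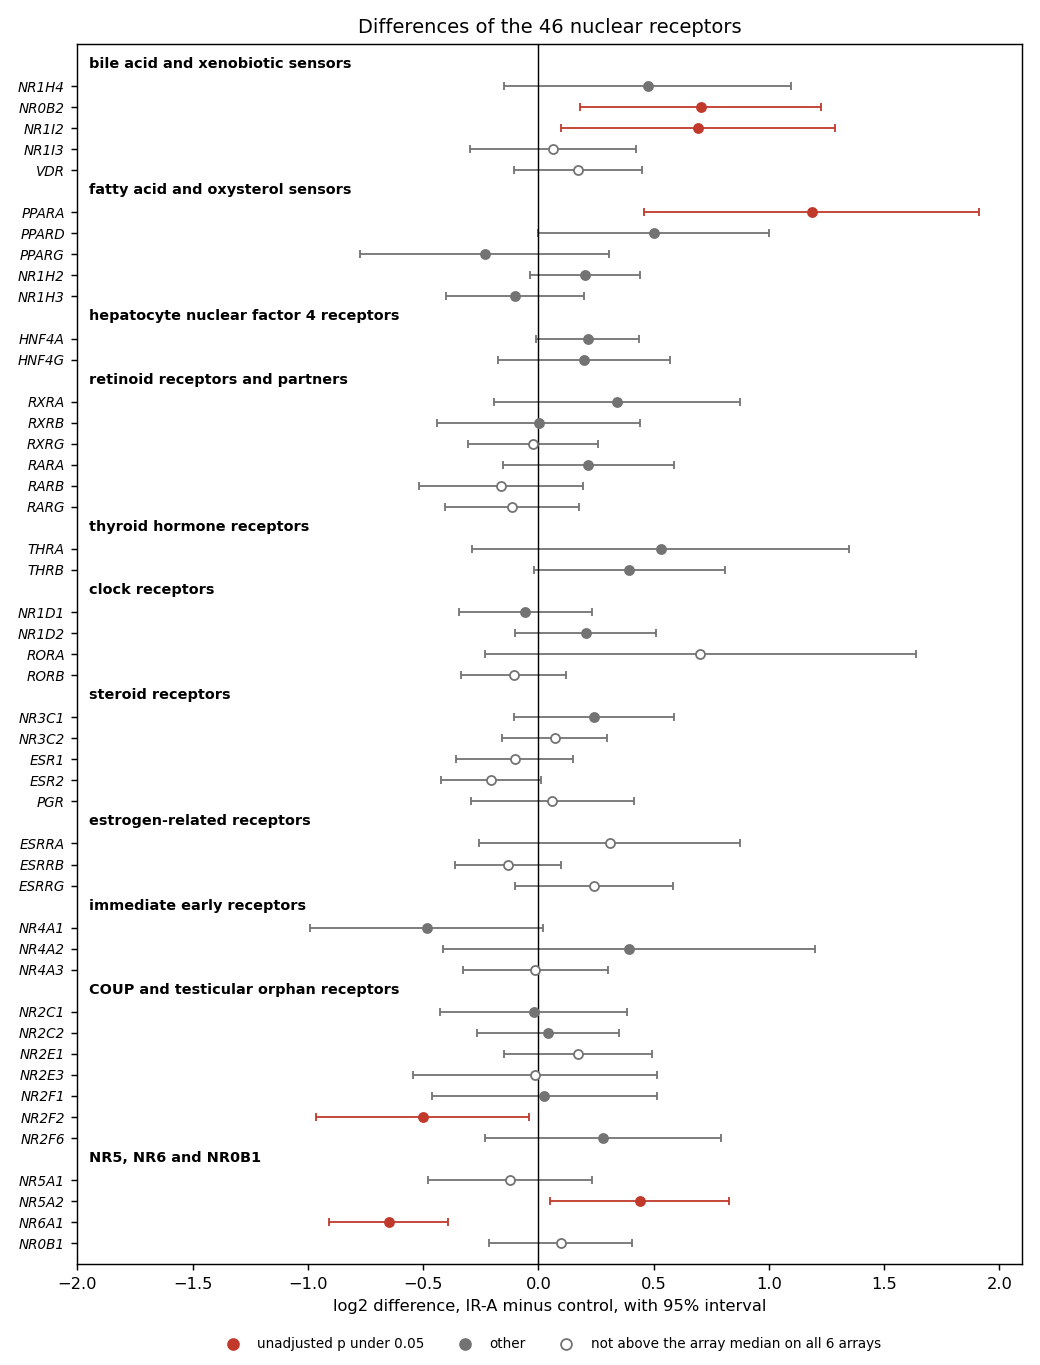
Log2 difference (IR-A minus control, x axis) of each of the 46 receptors with its moderated 95% interval, grouped by role. The 6 in red had an unadjusted p under 0.05, with PPARA at 1.19 as the highest and NR6A1 at -0.65 as the lowest, and open circles mark receptors not above the array median on all 6 arrays.

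The fatty acid receptor PPARA, which in liver switches on fatty acid oxidation and ketone synthesis, had the largest difference of the family. Its log2 signal was 8.03, 8.45 and 7.81 in IR-A tumours, against 6.26, 7.22 and 7.25 in control tumours. The groups did not overlap, and control tumour 1 was the lowest by far. The difference of 1.19 (SE 0.30, 95% interval 0.46 to 1.91) corresponds to 2.27-fold more signal, with an adjusted p of 0.190 in limma. Without control tumour 1 it was 0.86. PPARD, the broadly expressed fatty acid receptor, read 7.80, 7.67 and 7.52 in IR-A tumours, against 6.76, 7.57 and 7.16 in control tumours, a difference of 0.50 (SE 0.21, adjusted p = 0.356 in limma). Control tumour 2 lay among the IR-A tumours there, and without it the PPARD difference was 0.70, while without control tumour 1, the lowest, it was 0.30. PPARG, which drives fat storage in adipocytes, lay at 8.66 ± 0.17 in IR-A and 8.90 ± 0.44 in control tumours (SD, n = 3 each) with overlapping groups. Its difference of -0.23 was -0.46, with the groups apart, without control tumour 2, and -0.03 without control tumour 3.

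The oxysterol receptors, which answer to cholesterol load, differed little. NR1H2 (LXR beta) read 7.79, 7.73 and 7.65 in IR-A tumours, against 7.40, 7.53 and 7.63 in control tumours. The groups were apart by only 0.013, and the difference was 0.20 (SE 0.10). NR1H3 (LXR alpha) read 6.17, 6.06 and 6.45 in IR-A tumours, against 6.28, 6.42 and 6.29 in control tumours, with a difference of -0.10 (95% interval -0.40 to 0.20).

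**Figure D2:**
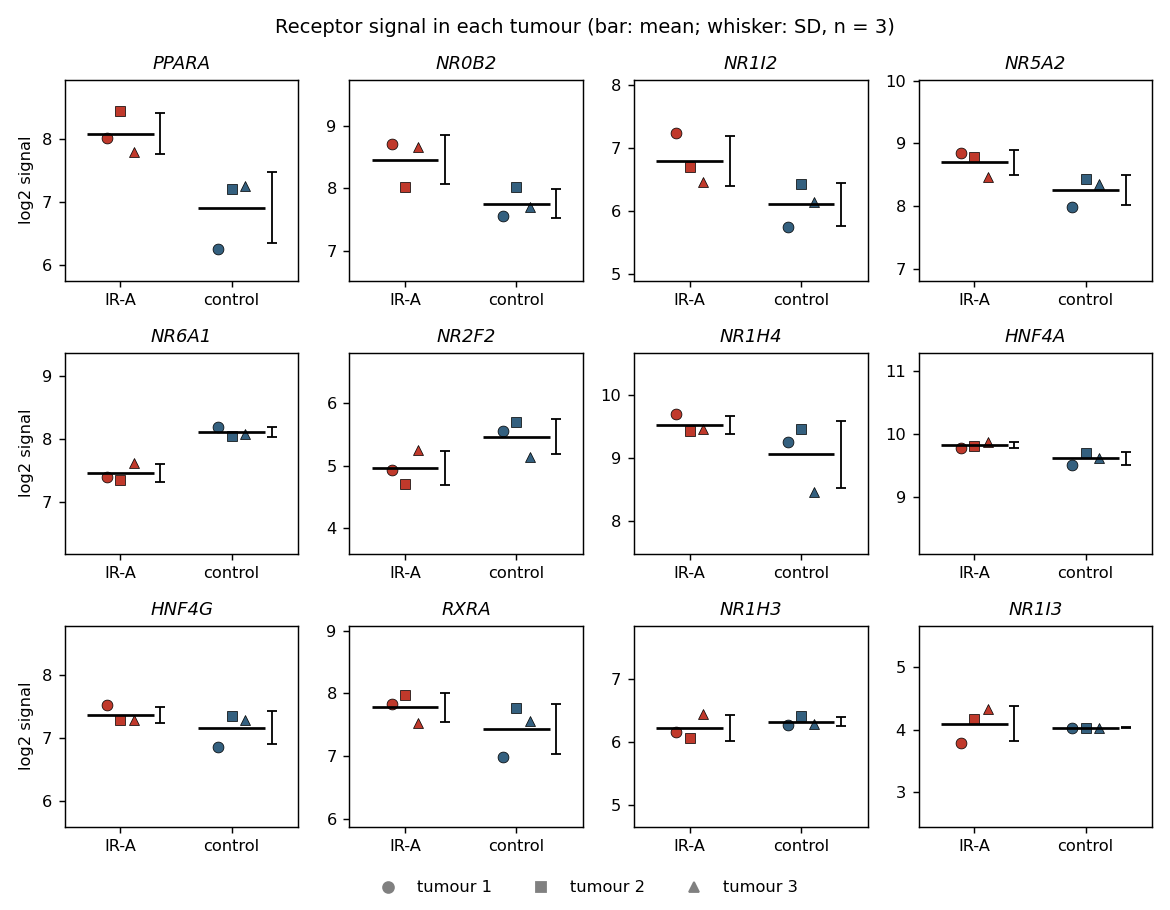
Log2 signal (y axis, all panels spanning the same range) of 12 receptors in each tumour, IR-A left of control, with the mean as a bar and the SD as a whisker (n = 3 each). IR-A and control tumours are well apart for PPARA and NR6A1, nearly touch for NR0B2, NR1I2 and NR5A2, and overlap for NR2F2, NR1H4, HNF4G, RXRA, NR1H3 and NR1I3.

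Among receptors for bile acids and foreign compounds, the small heterodimer partner NR0B2 (SHP) and the pregnane X receptor NR1I2 (PXR) had more signal in IR-A tumours. NR0B2, which lacks a DNA-binding domain and restrains other receptors, read 8.71, 8.02 and 8.66 in IR-A tumours, against 7.56, 8.02 and 7.70 in control tumours. IR-A tumour 2 and control tumour 2 were 0.0012 apart, so the groups only just failed to overlap. The difference was 0.70 (SE 0.22, 95% interval 0.18 to 1.23, adjusted p = 0.242 in limma). Its unadjusted p was not under 0.05 without moderation (0.054), or without control tumour 1 (0.056), IR-A tumour 1 (0.0586) or IR-A tumour 3 (0.0583) in limma. NR1I2, the drug sensor that induces CYP3A genes, read 7.24, 6.70 and 6.46 in IR-A tumours, against 5.75, 6.43 and 6.14 in control tumours, with a gap of 0.032 between IR-A tumour 3 and control tumour 2. Its difference was 0.69 (SE 0.25, 95% interval 0.10 to 1.29, adjusted p = 0.295 in limma). The unadjusted p of NR1I2 was 0.0543 to 0.0931 in limma without moderation, with a replicate block, and without control tumour 1, control tumour 3, IR-A tumour 1 or IR-A tumour 2. Without IR-A tumour 1 the difference was 0.47.

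The bile acid receptor NR1H4 (FXR) read 9.70, 9.43 and 9.46 in IR-A tumours, against 9.25, 9.47 and 8.46 in control tumours. Control tumour 3 was low and control tumour 2 lay among the IR-A tumours. The difference was 0.47 (SE 0.26, adjusted p = 0.488 in limma), while leaving out control tumour 3 gave 0.17 and leaving out control tumour 2 gave 0.68. The constitutive androstane receptor NR1I3 (CAR), partner of PXR in drug response, was dim. It read 3.78, 4.18 and 4.33 in IR-A tumours and 4.03 in each control tumour, 2 of them identical to all deposited digits. VDR, the vitamin D receptor, was dim, at 3.91, 4.12 and 3.95 in IR-A tumours, against 3.91, 3.91 and 3.65 in control tumours.

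HNF4A, the master receptor of hepatocyte identity, had tight groups. It read 9.78, 9.81 and 9.88 in IR-A tumours, against 9.51, 9.70 and 9.61 in control tumours. The groups did not overlap, and the difference was small, at 0.21 (SE 0.09, 95% interval -0.01 to 0.44, adjusted p = 0.379 in limma). With control tumour 2 left out it was 0.26, and with control tumour 1 left out 0.16. Its relative HNF4G, expressed in gut and some liver cancers, read 7.52, 7.29 and 7.29 in IR-A tumours, against 6.86, 7.36 and 7.29 in control tumours, and the groups overlapped (difference 0.20, SE 0.16, and 0.04 without control tumour 1).

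NR5A2 (LRH-1), which drives bile acid synthesis together with HNF4A and is held down by SHP, read 8.85, 8.78 and 8.46 in IR-A tumours, against 7.99, 8.43 and 8.36 in control tumours. The lowest IR-A tumour lay 0.030 above the highest control tumour. The difference was 0.44 (SE 0.16, 95% interval 0.05 to 0.83, adjusted p = 0.308 in limma), and 0.30 without control tumour 1. The unadjusted p of NR5A2 was 0.0623 to 0.105 in limma without moderation, with a replicate block, and without control tumour 1, IR-A tumour 1 or IR-A tumour 2. NR5A1 (SF-1), the steroid-gland counterpart, was dim at 3.97 ± 0.03 in IR-A and 4.09 ± 0.28 in control tumours (SD, n = 3 each). NR0B1 (DAX-1), which restrains NR5A1, was dim too, at 3.92 ± 0.12 and 3.83 ± 0.20 in IR-A and control tumours.

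NR6A1 (germ cell nuclear factor) is an orphan receptor that silences pluripotency genes such as POU5F1 during early development. It had the smallest p of the family. The log2 signal was 7.40, 7.35 and 7.62 in IR-A tumours, against 8.20, 8.05 and 8.07 in control tumours. All IR-A tumours lay below all control tumours, by a gap of 0.43, and the spread within each group was narrow. The difference was -0.65 (SE 0.11, 95% interval -0.91 to -0.39), or 0.638 times the control signal, with an unadjusted p of 0.00067 and an adjusted p of 0.131 in limma. With 1 tumour left out it ran from -0.73 to -0.60, and the adjusted p was 0.0664 without control tumour 2.

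**Figure D3:**
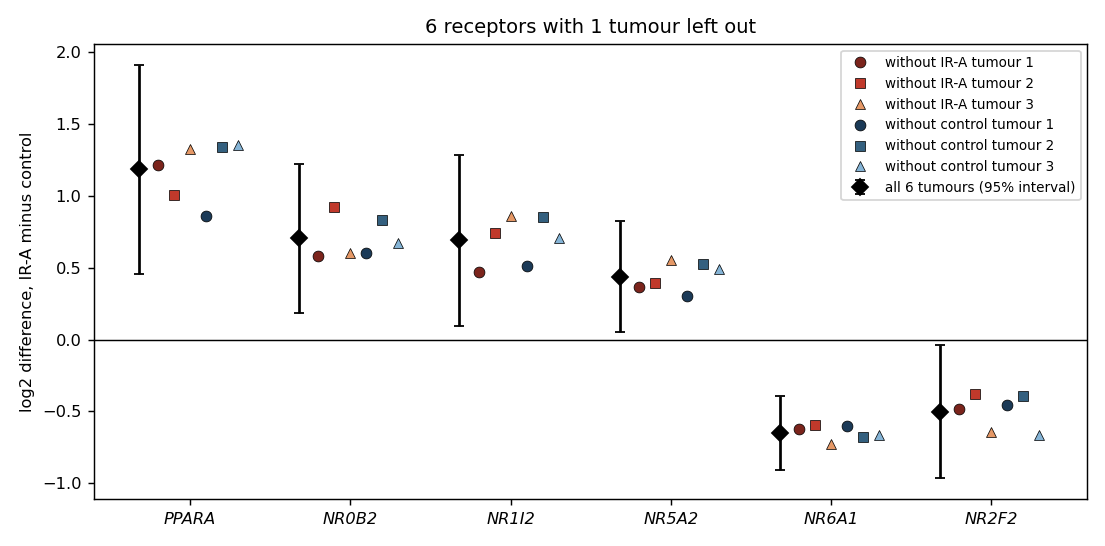
Log2 difference (IR-A minus control, y axis) of the 6 receptors with an unadjusted p under 0.05, over all tumours with the 95% interval (black diamonds) and with each tumour left out (coloured symbols). NR6A1 moves least, between -0.73 and -0.60, and PPARA is lowest without control tumour 1, at 0.86.

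Among the COUP and testicular orphan receptors, NR2F2 (COUP-TFII), a regulator of vein, stroma and developing organs, had lower signal in IR-A tumours. It read 4.93, 4.71 and 5.25 in IR-A tumours, against 5.56, 5.69 and 5.15 in control tumours. IR-A tumour 3 lay above control tumour 3, so the groups overlapped. The difference was -0.50 (SE 0.19, 95% interval -0.97 to -0.04, adjusted p = 0.323 in limma). Its unadjusted p was not under 0.05 after median centring (0.0508), without moderation (0.0906), with array weights (0.0633) or with a replicate block (0.0867). The same held without control tumour 1 (0.102), control tumour 2 (0.11), IR-A tumour 1 (0.0935) or IR-A tumour 2 (0.12) in limma. Endothelial and fibroblast cells also express NR2F2, and markers of both are given further on. Its close relative NR2F1 (COUP-TFI) was at 8.70 ± 0.14 in IR-A and 8.67 ± 0.40 in control tumours (SD, n = 3 each), a difference of 0.03 whose sign depended on the scaling, since it was -0.01 after quantile normalization.

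The groups of the remaining members of that family branch overlapped over all 6 tumours. NR2F6, a repressor studied in T cells, differed by 0.28 (SE 0.21), by 0.49 with the groups apart when control tumour 2 was left out, and by 0.14 when control tumour 1 was. NR2C1 and NR2C2, which repress globin genes in red cell precursors, differed by -0.02 and 0.04, and each 95% interval stayed inside -0.43 to 0.38. Without control tumour 2 they differed by 0.17 and 0.15, with the groups apart. NR2E1 and NR2E3, receptors of neural stem cells and photoreceptors, were dim, with differences of 0.17 and -0.02.

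Both thyroid hormone receptors had higher means in IR-A tumours, with overlapping groups. THRB, the main form in liver, read 8.16, 8.16 and 7.91 in IR-A tumours, against 7.81, 7.91 and 7.33 in control tumours. Control tumour 2 lay just above IR-A tumour 3. The difference was 0.39 (SE 0.17, adjusted p = 0.380 in limma), with 0.51 when control tumour 2 was left out and 0.22 when control tumour 3 was. THRA, the main form in heart and bone, read 6.24, 5.64 and 5.26 in IR-A tumours, against 4.82, 5.81 and 4.92 in control tumours. Its difference of 0.53 (SE 0.34) was 0.85 without control tumour 2 and 0.27 without IR-A tumour 1.

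The retinoid receptors, which bind forms of vitamin A, differed little. RXRA, the common partner of most liver receptors, read 7.83, 7.97 and 7.53 in IR-A tumours, against 6.99, 7.77 and 7.56 in control tumours, a difference of 0.34 (SE 0.22, 95% interval -0.19 to 0.88). Control tumour 1 alone was low, and without it the difference was 0.12, whereas without control tumour 2 it was 0.51. RXRB differed by 0.0013 (95% interval -0.44 to 0.44) and RARA, the broadly expressed retinoic acid receptor, by 0.22 (SE 0.15). RARB, RARG and RXRG were dim, and their differences ran from -0.16 to -0.03.

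Of the clock receptors, RORA, which activates BMAL1, had the widest spread. It read 5.29, 6.28 and 5.29 in IR-A tumours, against 4.59, 4.52 and 5.65 in control tumours. Control tumour 3 exceeded 2 of the IR-A tumours, and the difference was 0.70 (SE 0.39, 95% interval -0.23 to 1.64). It was 1.07 without control tumour 3 and 0.37 without IR-A tumour 2. The repressors NR1D1 and NR1D2 (REV-ERB alpha and beta), which oppose RORA at the same elements, differed by -0.06 and 0.21. RORB, a receptor of retina and brain, was dim, with a difference of -0.11.

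Among the early response receptors, which need no known ligand and are induced within minutes by growth factors or stress, NR4A1 read 4.68, 5.19 and 4.87 in IR-A tumours, against 5.77, 5.36 and 5.07 in control tumours. Its difference was -0.48 (SE 0.21, adjusted p = 0.378 in limma), and IR-A tumour 2 lay above control tumour 3. It was -0.30 without control tumour 1 and -0.65 without control tumour 3. NR4A2 read 6.70, 6.46 and 6.41 in IR-A tumours, against 5.97, 6.91 and 5.51 in control tumours. Control tumour 2 was the highest of all 6, and the difference of 0.39 (SE 0.34) was 0.78 without it and 0.09 without control tumour 3. NR4A3 was dim and differed by -0.01.

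Steroid receptors were dim with 1 exception. NR3C1, the glucocorticoid receptor, read 6.45, 6.61 and 6.22 in IR-A tumours, against 5.97, 6.28 and 6.31 in control tumours (difference 0.24, SE 0.15). The mineralocorticoid receptor NR3C2, the estrogen receptors ESR1 and ESR2 and the progesterone receptor PGR had group means from 3.03 to 3.94. ESR2 was the 1 steroid receptor whose groups did not overlap, at 3.43, 3.39 and 3.54 in IR-A tumours, against 3.71, 3.69 and 3.59 in control tumours (difference -0.21, SE 0.09). At that level the probe set carries little signal. The estrogen-related receptors, which govern mitochondrial genes without a hormone, were not above the array median on all arrays either. ESRRA differed by 0.31 (SE 0.24; 0.09 without IR-A tumour 1), ESRRG by 0.24 (SE 0.14) and ESRRB by -0.13 (SE 0.10).

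Over the family, control tumour 1 was the lowest of the 6 tumours in 16 of 46 receptors, beside 16.9% of all probe sets, and IR-A tumour 1 the highest in 12, beside 15.4%. Leaving out either left only PPARA and NR6A1 at an unadjusted p under 0.05 (2 of 46, or 4.35%), beside 9% of all probe sets without control tumour 1 and 8.72% without IR-A tumour 1. Without control tumour 2 there were 13 receptors (28.3%), beside 21.1% of all probe sets. Added to the 6 were PPARD, PPARG, NR1H4, HNF4A, THRA, THRB, NR2F6 and NR4A2, while NR2F2 was no longer among them. None of these passed adjustment without control tumour 2, where 1.25% of all probe sets did. That tumour was picked for standing near the IR-A tumours, so a higher count without it follows in part from the choice.

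Genes that the receptors control were described from lists, 10 of targets with 113 genes measured of 115. The lists were chosen with earlier results of these data known, so their counts are descriptions and no independent test. No target passed adjustment. At an unadjusted p under 0.05, 29 targets were higher and 7 lower in IR-A tumours (31.9%, beside 14.1% of all probe sets), and the median difference over the targets was 0.15. Above the array's median on all 6 arrays lay 84 of the 113, and of all such probe sets 23.8% had an unadjusted p under 0.05. After dropping the dimmest 50% of probe sets, 25 of 89 targets were higher and 6 lower (34.8%, beside 20.7%). The counts were 20 and 6 without control tumour 1 (23.0%, beside 9% of all probe sets) and 16 and 4 without IR-A tumour 1 (17.7%, beside 8.72%). Without control tumour 2 they were 38 and 11 (43.4%, beside 21.1%), and 11 targets passed adjustment there, beside 1.25% of all probe sets. Here too, that tumour was picked for standing near the IR-A tumours, which tends to raise these counts. The counts of single lists that follow are to be read beside 7.1% of all probe sets higher and 7.03% lower, 14.1% either way, and many lists are short. For lists of mostly bright genes the 23.8% is the nearer share. Many listed targets answer to several factors, so a list's count does not measure its receptor.

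For PPARA, 5 of 18 listed targets were higher at an unadjusted p under 0.05 and none lower (27.8%, beside 14.1% of all probe sets), with a list median of 0.26. Above the array's median on all 6 arrays lay 15 of the 18, and 23.8% of all such probe sets had an unadjusted p under 0.05. CPT1A, which carries fatty acids into mitochondria, read 8.96, 9.24 and 8.33 in IR-A tumours, against 4.87, 7.25 and 6.36 in control tumours. Its groups were 1.08 apart, with a difference of 2.68 (SE 0.59, adjusted p = 0.157 in limma). PDK4, which spares glucose, differed by 0.64 (SE 0.23) and the carnitine carrier SLC25A20 by 0.76 (SE 0.30). Other listed targets did not share this, such as FABP1 at 0.17 (SE 0.18), ANGPTL4 at -0.01 (SE 0.35) and HADHA at 0.04 (SE 0.11). Without IR-A tumour 1 the count was 2 of 18 (11.1%), near the 8.72% of all probe sets.

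Listed targets of FXR and SHP showed 5 higher and 1 lower of 14, with a median of 0.31 (42.9% called, beside 14.1%). FGF19, the gut and liver hormone that FXR induces, was lower in IR-A tumours, at 5.77, 5.78 and 6.37, against 8.17, 7.39 and 8.25 in control tumours. The difference of -1.96 (SE 0.28, adjusted p = 0.126 in limma) ran opposite to that of the bile salt pump ABCB11, another FXR target, at 2.33 (SE 0.44). The secreted protein FETUB had the largest difference of the list, 3.44 (SE 0.91), with 8.14 in control tumour 2 and 4.81 and 4.75 in the other controls. KLB, the coreceptor for FGF19, differed by 0.61 (SE 0.12). CYP8B1, an enzyme of bile acid synthesis that SHP represses, differed by 1.73 (SE 0.37), while SHP itself also had more signal. CYP7A1, the rate-limiting enzyme, was dim at 3.18, 2.96 and 3.02 in IR-A tumours, against 3.03, 3.26 and 2.85 in control tumours.

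Listed targets of PXR and CAR split as well, with 2 higher and 1 lower of 13 measured (23.1%, beside 14.1%). Above the array's median on all 6 arrays lay 11 of the 13, and 23.8% of all such probe sets had an unadjusted p under 0.05. CYP3A5, a drug-metabolising cytochrome, read 9.39, 9.02 and 8.83 in IR-A tumours, against 6.27, 8.73 and 6.39 in control tumours, so that control tumour 2 was nearly level with the IR-A tumours (difference 1.95, SE 0.64). SULT2A1, which sulfates steroids and bile acids, differed by 1.33 (SE 0.46). CYP2B6, the classic CAR target, read 6.71, 6.78 and 7.01 in IR-A tumours, against 7.83, 8.44 and 7.71 in control tumours, a difference of -1.16 (SE 0.21, adjusted p = 0.140 in limma). CYP3A4 was dim, at 3.21, 3.14 and 2.97 in IR-A tumours, against 3.15, 3.07 and 2.64 in control tumours (difference 0.15, SE 0.16). UGT1A1 differed by -0.03 (SE 0.53), ABCC2 by 0.12 (SE 0.26) and ABCB1 by -0.39 (SE 0.25). Of the 13 differences 10 were above 0 (76.9%, beside 44.0% of all probe sets). Only the 1 lower target was left in this list's count (7.69%) without control tumour 1 or 3, without IR-A tumour 1 or 2, and without moderation. Of all probe sets, 8.72% to 11.7% were counted in those settings. The list had 6 higher and 2 lower without control tumour 2 (61.5%, beside 21.1%), and 3 higher and 1 lower with array weights (30.8%, beside 17.8%).

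Of 11 listed LXR targets, 5 were higher and none lower (45.5%, beside 14.1%), beside differences of 0.20 and -0.10 for the receptors NR1H2 and NR1H3. APOE, the lipoprotein ligand, differed by 0.68 (SE 0.16), the cholesterol exporter ABCA1 by 0.67 (SE 0.19), the phospholipid enzyme LPCAT3 by 0.68 (SE 0.19) and the sterol pump subunit ABCG8 by 0.54 (SE 0.15). SREBF1, the lipogenic factor that LXR induces, differed by 0.25 (SE 0.16). Of 16 listed HNF4A targets, 7 were higher and none lower (43.8%, beside 14.1%), with a median of 0.34. Apolipoprotein APOB differed by 0.42 (SE 0.14), transferrin, TF, by 0.35 (SE 0.12) and the urea cycle enzyme OTC by 2.18 (SE 0.75). Control tumour 2 read 7.61 for OTC, far above the other controls at 4.36 and 5.78. The HNF4A count was 4 without control tumour 1 (beside 9% of all probe sets) and 2 without IR-A tumour 1 (beside 8.72%).

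Around the clock receptors, 2 of 15 genes were higher and 1 lower (20%, beside 14.1%). BMAL1, which RORA activates and REV-ERB represses, read 5.32, 4.92 and 5.30 in IR-A tumours, against 3.76, 4.65 and 4.14 in control tumours, a difference of 0.99 (SE 0.24). NFIL3 differed by 0.28 (SE 0.12) and HLF by -0.93 (SE 0.26), both of them bZIP factors of clock output. The PER genes, repressors of the clock, stayed between 0.01 and 0.09.

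Of 9 listed glucocorticoid receptor targets, 2 were lower, the chaperone partner FKBP5 (-0.73, SE 0.18) and the metallothionein MT2A (-1.18, SE 0.38), and none was higher. Retinoic acid targets had 2 higher and 1 lower of 9, among them the crosslinking enzyme TGM2 (0.70, SE 0.18) and the retinoic acid-degrading CYP26B1 (-0.32, SE 0.13). The thyroid hormone list had 1 of 6, the deiodinase DIO1, at 8.24, 8.26 and 8.11 in IR-A tumours, against 4.50, 7.39 and 5.51 in control tumours (difference 2.40, SE 0.66). The vitamin D list had 1 lower of 5, the lipase inhibitor G0S2 (-0.40, SE 0.14).

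**Figure D4:**
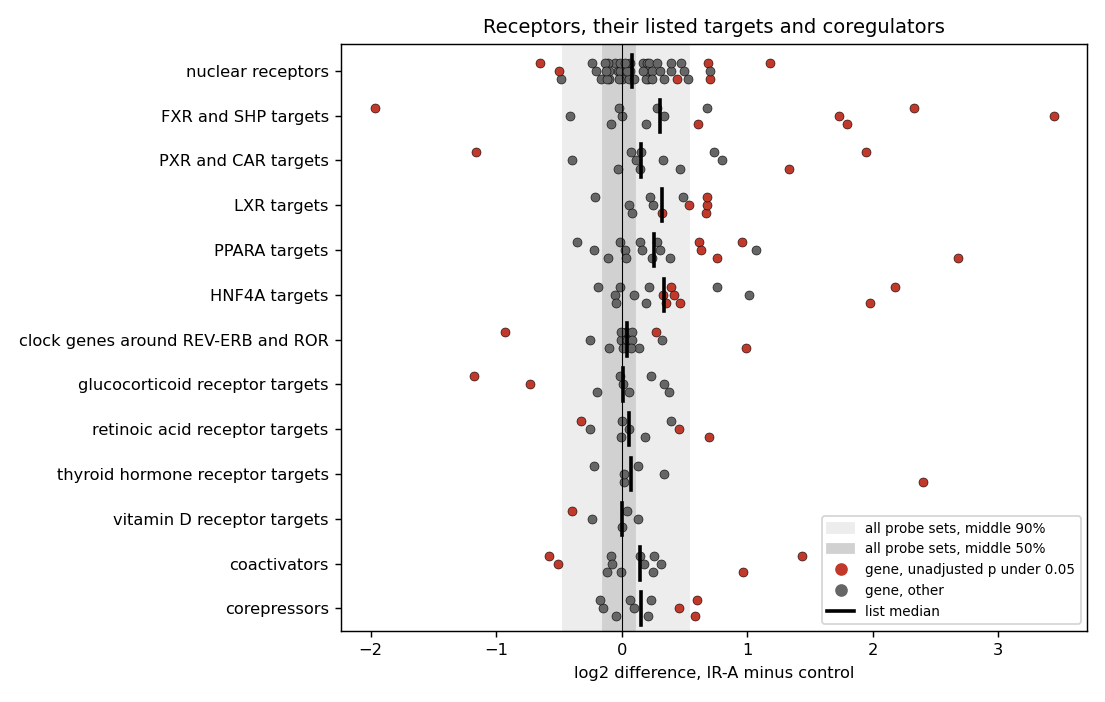
Log2 difference (IR-A minus control, x axis) of each receptor, listed target and listed coregulator, 1 point a gene, red at an unadjusted p under 0.05, with list medians as black bars and nested grey bands for the middle of all probe sets. The receptors gather near 0 (median 0.08), while FXR and SHP targets spread from -1.96 to 3.44 and LXR targets lie mostly right of 0 (median 0.32).

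Coactivators and corepressors, which receptors use to open or close chromatin, were counted in the same way. Of 13 coactivators 2 were higher and 2 lower (30.8%, beside 14.1% of all probe sets). Above the array's median on all 6 arrays lay 12 of the 13 and all 10 corepressors, and of all such probe sets 23.8% had an unadjusted p under 0.05. PPARGC1A (PGC-1 alpha), which works with PPARA and HNF4A in fasting, read 6.76, 7.33 and 6.24 in IR-A tumours, against 5.14, 5.49 and 5.38 in control tumours, with no overlap and a difference of 1.44 (SE 0.27, adjusted p = 0.147 in limma). NCOA1 (SRC-1) differed by 0.97 (SE 0.31). The arginine methyltransferases CARM1 and PRMT1 differed by -0.58 (SE 0.08) and -0.51 (SE 0.19). Of 10 corepressors 3 were higher and none lower (30%, beside 14.1%), namely TBL1XR1 (0.60, SE 0.16) and HDAC3 (0.58, SE 0.17) of the NCOR complex and NRIP1 (0.46, SE 0.16), while the scaffold NCOR1 itself differed by -0.15 (SE 0.17).

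Markers of other cell types were read because a tumour holds host cells that carry some of these receptors. The probe sets are for human genes, so mouse RNA counts only where it binds them. Counts are again at an unadjusted p under 0.05, beside 14.1% of all probe sets. Of 10 fibroblast markers 3 were higher and none lower (30%), LUM (1.26, SE 0.15), COL1A2 (0.83, SE 0.20) and COL1A1 (0.40, SE 0.12). The summed linear signal of that list was 338 to 375 in IR-A and 267 to 460 in control tumours. Of 9 endothelial markers 1 was higher (11.1%), PECAM1 (0.51, SE 0.20), and their sum was 170 to 185 in IR-A and 158 to 189 in control tumours. Of 10 macrophage markers 2 were higher, TYROBP (1.78, SE 0.29) and CD68 (0.62, SE 0.21), and 1 lower, FCER1G (-0.60, SE 0.19), 30% in all, with sums of 5030 to 6541 in IR-A and 3660 to 5740 in control tumours. Of 7 adipocyte markers 1 was higher (14.3%), PLIN1 (1.64, SE 0.46), and sums were 277 to 370 in IR-A and 185 to 331 in control tumours. Of 6 erythroid markers 1 was higher (16.7%), ALAS2 (0.26, SE 0.10), with sums of 135 to 140 in IR-A and 107 to 134 in control tumours. No measured marker of muscle (6), keratinocytes (6) or lymphocytes (7) had an unadjusted p under 0.05, and their sums were 103 to 128, 68.6 to 76.6 and 516 to 692 in IR-A and 107 to 148, 65.1 to 86.3 and 500 to 1053 in control tumours. Below 0, whatever the p, were 3 of 10 fibroblast, 7 of 9 endothelial, 4 of 10 macrophage and 5 of 7 adipocyte differences. So were 2 of 6 erythroid, 5 of 6 muscle, 4 of 6 keratinocyte and 6 of 7 lymphocyte differences, while 44.0% of all probe sets lay above 0. The lowest fibroblast difference was -0.87. In 1 fibroblast marker the groups did not overlap with IR-A tumours below (9.45% of all probe sets). An array reads no true 0, and the dimmest defining markers, such as DCN at 2.56 in IR-A and 2.57 in control tumours, lay near the bottom of the scale. The part of host cells in the receptor differences was not tested.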

How the data were processed

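Total RNA of 6 tumours (3 IR-A, 3 control) was labelled by a whole-transcript method and hybridised to Affymetrix arrays, per the labels' protocols. Each deposited value is the log2 signal of 1 probe set on 1 array. The submitters' processing notes name RMA and Partek, with no version or role. The log2 scale was read from the range of the values. The number of arrays limits the precision. The array's annotation names 23934 of 24726 probe sets and leaves 792 unnamed here. It names 40 of the 46 receptors. The other 6 (NR1H4, NR1I2, NR1H2, HNF4A, NR2F2 and NR0B1) were named by looking up the gene ID in the row name in RefSeq's gene table (GRCh38.p14), and so were some list genes. At most 4.15% of values were equal between any 2 arrays.

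Groups were compared with limma 3.58.1 in R 4.3.3 (lmFit, eBayes, two-sided), adjusting p-values by Benjamini-Hochberg across the whole table, at a threshold of 0.05 and with no filter. Unadjusted p-values served for counts, read beside the share of all probe sets, and to choose which members were described in full, which promoters were shown and which list genes were named. All receptors were named. Values per tumour were given for those with an unadjusted p under 0.05 and for 10 liver receptors, and further receptors and targets with such values were chosen after these were seen. Of each list up to 4 members of smallest p were named, and others were chosen after their values were seen. A few list genes are counted but not reported here by name. Receptors and lists were chosen with earlier results of these data known. Tested on 20 sets of simulated arrays of 24726 probe sets, the fit called 58.8% of rows shifted by 1, 92.4% of rows shifted by 2 and 0.03% of unshifted rows. The simulated noise was independent between rows and arrays, with variances drawn from limma's prior. Real tumours can share shifts over many genes, so these shares need not hold for them. Among the real values even INSR, with a difference of 2.95, did not pass (adjusted p = 0.0769 in limma). Replicate numbers did not pair the tumours (deviation correlations -0.29, -0.36 and 0.02). Plots used Python 3.11.15 with matplotlib 3.10.9. Alternatives changed the scaling (quantile, median centring), the filter (dimmest 25% or 50% out), the moderation (trend, robust, none), the weights, the block, or left out 1 tumour. The counts of targets under these were added after seeing the data.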

Additional observations from a re-analysis of the deposited data

How the results depend on the processing

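No receptor passed adjustment in any of the 15 alternatives, and 34 of 46 kept the direction of their difference in all of them. The count at an unadjusted p under 0.05, 6 as reported, ran from 2 to 13 with 1 tumour left out, and was 4 with the replicate number as a block. The count of receptors without overlap, 9 as reported, ran from 10 to 22 with 1 tumour left out, where fewer values have to be apart. The median difference of 0.08 was 0.17 over the 41 receptors left after dropping the dimmest 25% of probe sets and 0.22 over the 29 left after dropping 50%, and ran from 0.0796 to 0.15 with 1 tumour left out.

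The 12 receptors that changed sign had differences of at most 0.12 either way, and the cause was not tested. After quantile normalization RXRB was at -0.041, RXRG at 0.0017, NR4A3 at 0.017, NR2E3 at 0.010 and NR2F1 at -0.011. NR4A3 was at 0.0018 after median centring and at 0.019 with array weights, where NR2C1 was at 0.067. With 1 tumour left out, the difference ran for NR1I3 from -0.0533 to 0.223, for RXRB from -0.198 to 0.152, for RXRG from -0.108 to 0.0481, for NR1D1 from -0.134 to 0.0576, for PGR from -0.0562 to 0.189, for NR4A3 from -0.128 to 0.0934, for NR2C1 from -0.128 to 0.165, for NR2C2 from -0.0276 to 0.148, for NR2E3 from -0.241 to 0.21, for NR2F1 from -0.152 to 0.239, for NR5A1 from -0.245 to 0.0301 and for NR0B1 from -0.00634 to 0.189. Background signal was not used here, so for the 19 receptors not above the array median on all arrays the differences are least certain.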
